A study of Homo sapiens with 8 samples.

Results

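A set of 30 genes of cholesterol synthesis, uptake and export was followed in PC3 cells in which the arginine methyltransferase PRMT7 had been targeted. They were taken by gene symbol from the deposited expression table. All 30 were found among its 58735 genes, each on 1 row. They form 5 steps: 8 genes from acetyl-CoA to farnesyl and geranylgeranyl diphosphate, 11 from squalene to cholesterol, 4 of SREBP2 control, 5 of uptake and transport inside the cell, and 2 of export and storage. Some well-known genes of the pathway are not analysed here.

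PC3 is an established human prostate cancer line. There were 8 libraries of poly(A)-selected RNA, taken 48 h after lipofection. The 4 siCtrl libraries carry the genotype label WT and the 4 siPRMT7 libraries the label PRMT7 knockdown, while the library names of both use the prefix sh. Transfection, judged by green fluorescence, was reported as incomplete. In bulk RNA of this kind, fewer cells of a type and less RNA per cell cannot be told apart. Nothing in the labels ties replicates to separate cultures, so each p below covers only the spread among these libraries, which may be technical.

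Cholesterol is built from acetyl-CoA through mevalonate, which is turned into isoprenoid diphosphates. Squalene is made from these, closed into lanosterol and trimmed to cholesterol. When sterols in the endoplasmic reticulum run low, the escort protein SCAP carries the transcription factor SREBP2, encoded by SREBF2, to the Golgi, where proteases free its active part. INSIG proteins hold SCAP back when sterols are plentiful. SREBP2 raises most synthesis genes and INSIG1 itself, commonly together with NF-Y and SP1 bound nearby. The nuclear receptor LXR, which senses oxysterols, raises the exporter ABCA1 and MYLIP, a ubiquitin ligase.

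Of the 30 genes, 29 reached 1 FPKM (fragments normalized to gene length and sequencing depth) in at least 4 libraries and were tested with 13436 genes in all. None of the 29 passed limma at an adjusted p of 0.05: 0 were called, against 0.0149% of all genes tested (2 genes). The 29 adjusted p-values ran from 0.189 to 0.98. A group of 7 genes, MVD, INSIG1, NSDHL, MSMO1, STARD4, IDI1 and NPC2, had an unadjusted p under 0.05, and all 7 had a higher mean in the siPRMT7 libraries. That is 24.1% of the 29, against 7.67% of all genes tested in that direction. In the lower direction it was 0 of 29, against 5.49% of all genes. In either direction the share of all genes was 13.2%. Leaving out siPRMT7 replicate 2, 3 or 1 changed the 7 to 4, 4 and 12 (13.8%, 13.8% and 41.4% of the 29), while the share of all genes in either direction was 13.0%, 9.45% and 20.8%. Leaving out siCtrl replicate 1 or 4 changed it to 4 and 3 (13.8% and 10.3%), beside 10.6% and 8.79% of all genes. It was 4 (13.8%) with every library brought to one total (TPM scale), beside 13.5% of all genes. In all these settings the members counted had a higher mean. Of all genes, 7.05%, 5.49% and 12.3% were counted as higher without siPRMT7 replicate 2, 3 or 1. That share was 6.24% and 5.35% without siCtrl replicate 1 or 4, and 5.69% on the TPM scale.

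By mean level, 20 of the 29 were higher and 9 lower in the siPRMT7 libraries, and 49.5% of all genes tested were higher. The median log2 fold change of the 29, on the log2(FPKM + 1) scale, was 0.10, beside -0.0015 for all genes tested. It was 0.063 on the TPM scale, where the median of all genes was -0.035. In 4 genes, MVD, INSIG1, MSMO1 and MYLIP, the lowest siPRMT7 value exceeded the highest siCtrl value. That is 13.8% of the 29, against 4.14% of all genes tested. No gene of the 29 lay entirely below its controls, against 4.43% of all genes.

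Promoter sequences are shown for these 4 genes, picked because their groups do not overlap, and for SREBF2, the regulator. RefSeq promoters (GRCh38.p14) were found for 27 of the 30 genes, and the 250 bases before the RefSeq start were searched. The stretches printed stop before the first annotated exon of the gene. Capitals mark the NF-Y box CCAAT, which reads ATTGG on the other strand, and in SREBF2 also the sterol regulatory element consensus TCACNCCAC. MVD lies at chr16:88663162-88663341 on the minus strand, and the others are on the plus strand: INSIG1 at chr7:155297628-155297775, MSMO1 at chr4:165327419-165327622, MYLIP at chr6:16128836-16129085 and SREBF2 at chr22:41832855-41833078.
MVD: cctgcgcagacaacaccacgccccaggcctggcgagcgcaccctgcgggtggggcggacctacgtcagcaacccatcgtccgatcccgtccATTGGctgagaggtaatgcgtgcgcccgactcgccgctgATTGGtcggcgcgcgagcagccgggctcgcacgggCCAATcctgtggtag
INSIG1: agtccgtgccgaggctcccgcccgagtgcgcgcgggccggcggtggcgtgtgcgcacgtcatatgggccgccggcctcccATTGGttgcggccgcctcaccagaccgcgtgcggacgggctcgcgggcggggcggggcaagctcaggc
MSMO1: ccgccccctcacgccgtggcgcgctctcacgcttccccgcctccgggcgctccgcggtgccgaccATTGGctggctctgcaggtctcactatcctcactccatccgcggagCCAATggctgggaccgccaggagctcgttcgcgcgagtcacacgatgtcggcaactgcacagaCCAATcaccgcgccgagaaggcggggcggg
MYLIP: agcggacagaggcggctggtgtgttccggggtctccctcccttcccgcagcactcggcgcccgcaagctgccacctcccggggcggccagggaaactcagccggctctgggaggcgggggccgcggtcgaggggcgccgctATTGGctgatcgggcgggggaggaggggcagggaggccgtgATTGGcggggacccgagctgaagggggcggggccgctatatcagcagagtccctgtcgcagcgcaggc
SREBF2: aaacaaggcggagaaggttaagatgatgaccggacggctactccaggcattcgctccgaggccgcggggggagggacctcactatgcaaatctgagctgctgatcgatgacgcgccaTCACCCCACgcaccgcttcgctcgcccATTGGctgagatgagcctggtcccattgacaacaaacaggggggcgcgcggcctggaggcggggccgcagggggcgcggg

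The NF-Y box, searched on both strands, was in 19 of the 27 promoters (70.4%), compared with 35.5% of the 9095 promoters of genes tested and 33.04% of all 27305 promoters. MSMO1 held 4 boxes, of which 3 are in the stretch printed, MVD 3, MYLIP 2, INSIG1 1 and SREBF2 1. The SP1 box GGGCGG was in 25 of 27 (92.6%), against 68.7% of promoters of genes tested. The sterol regulatory element consensus was in 1 of 27, SREBF2, against 0.814% of promoters of genes tested. It overlapped neither of the other boxes in that promoter. A match is a description of letters in this window. The absence of TCACNCCAC in the other 26 says nothing about SREBP2 there, since its sites vary in sequence and position.

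One library stood apart from the rest. On the first principal component of all genes tested (31.4% of the variance) siPRMT7 replicate 2 lay at 28.4 and the other 7 between -11.9 and 7.36. Libraries held 14526030 to 15724862 fragments. Cytosolic ribosomal protein genes took 3.9% of the fragments of siPRMT7 replicate 2, the highest share, and the lowest was 2.94%. PRMT7 itself had 5.24, 4.86, 5.1 and 5.25 FPKM in siCtrl replicates 1 to 4 and 4.62, 4.31, 5.01 and 4.82 FPKM in siPRMT7 replicates 1 to 4. The percent difference of its mean was -8.29, with a two-sided exact permutation p of 0.0571, where 0.0286 is the smallest possible. On the TPM scale it was -10.7, with an exact permutation p of 0.0286. Without siPRMT7 replicate 2 the percent difference in FPKM was -5.80. In limma PRMT7 had a log2 fold change of -0.10 (-0.23 to 0.017), with an adjusted p of 0.428, so it did not pass. Its groups overlap on the FPKM scale and not on the TPM scale (19.2 to 20.8 TPM in siCtrl and 15.5 to 18.8 TPM in siPRMT7), and the libraries are called by their labels throughout. Of 6 markers of PC3 and epithelial cells 0 were under 1 FPKM throughout, and KLK2 and KLK3, prostate genes that PC3 is known to lack, were at 0 in all libraries. Summed FPKM of other markers, siCtrl then siPRMT7, was 0.903 to 1.26 and 1.03 to 1.51 for 5 leukocyte genes, 3.21 to 3.64 and 2.84 to 3.62 for 3 endothelial genes, and 8.28 to 9.71 and 8.48 to 9.88 for 5 fibroblast genes.

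Along the mevalonate steps, 7 of 8 genes had a higher mean in the siPRMT7 libraries and 1 a lower one, with a median log2 fold change of 0.11. MVD (ENSG00000167508, chromosome 16, 88651935 to 88663161, minus strand), which decarboxylates mevalonate diphosphate, had 13.2, 12.3, 13.05 and 12.3 FPKM in siCtrl replicates 1 to 4 and 13.7, 15.7, 14.9 and 15.1 FPKM in siPRMT7 replicates 1 to 4. All siPRMT7 libraries were above all siCtrl libraries, and replicate 1 was the nearest to them. The mean moved from 12.7 ± 0.481 to 14.9 ± 0.828 FPKM (SD, n = 4 each), a 16.9% higher level. Its log2 fold change of 0.21 (95% interval 0.095 to 0.32) had an adjusted p of 0.189 in limma. It was 0.18 without siPRMT7 replicate 2. Over the alternatives its adjusted p ran from 0.083 to 0.434. The antisense gene SNAI3-AS1 covers part of the promoter stretch printed for MVD, and SREBF2-AS1 covers all of the one printed for SREBF2.

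IDI1, which isomerises isopentenyl diphosphate, had 12.4, 12.3, 13.3 and 11.96 FPKM in siCtrl and 13.1, 14.7, 13.7 and 13.1 FPKM in siPRMT7 replicates 1 to 4. Its siPRMT7 replicates 2 and 3 were above every control. HMGCS1, which makes hydroxymethylglutaryl-CoA, had 19.5, 21.5, 18.6 and 18.8 FPKM in siCtrl and 19.8, 22.5, 21.1 and 20.9 FPKM in siPRMT7 replicates. Only siPRMT7 replicate 2 exceeded siCtrl replicate 2, the highest control. Their log2 fold changes were 0.12 (0.0040 to 0.24) and 0.10 (-0.025 to 0.23), with adjusted p-values of 0.367 and 0.457 in limma.

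ACAT2, which joins acetyl-CoA units, had a mean of 7.18 ± 0.569 FPKM in the controls and 7.83 ± 0.604 FPKM after siPRMT7 (SD, n = 4 each, here and below in that order). PMVK, which adds the second phosphate to mevalonate, had 17.3 ± 2.09 and 19.95 ± 3.07 FPKM, the widest interval of the 29 (-0.067 to 0.45). The mevalonate kinase MVK had 6.87 ± 0.17 and 7.23 ± 0.66 FPKM. FDPS, which makes farnesyl diphosphate, had 14.2 ± 0.932 and 14.5 ± 0.799 FPKM, a difference of 2.08% that turned to the lower side on the TPM scale (log2 fold change -0.010). GGPS1, which makes geranylgeranyl diphosphate on a side branch, was the lower one, with 3.34 ± 0.234 and 3.25 ± 0.442 FPKM. It shares 37.3% of its exonic bases with TBCE on the same strand, and the sources used here do not say how such fragments were counted. ACAT2 shares 9.23% of its exonic bases with TCP1 on the opposite strand, a gene at 39.5 to 48.4 FPKM. On that strand ACAT2 also shares 26.5% with SOD2 (0 to 0.0503 FPKM) and 33.9% with SOD2-OT1 (0 FPKM in all libraries). The sources do not say whether counting used strand.

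From squalene to cholesterol, 8 of 11 genes had a higher mean and 3 a lower one, with a median of 0.11. The 3, HSD17B7, SC5D and DHCR7, differed by under 1% between groups. MSMO1 (ENSG00000052802, chromosome 4, 165327623 to 165343160, plus strand), a sterol C4 methyl oxidase, had 26.3, 26.8, 27.2 and 24.1 FPKM in siCtrl and 27.7, 29.8, 27.7 and 29.4 FPKM in siPRMT7 replicates 1 to 4. The groups did not overlap, though siPRMT7 replicates 1 and 3 were close to siCtrl replicate 3. NSDHL (ENSG00000147383, chromosome X, 152830967 to 152869729, plus strand), which acts in the same C4 demethylation, had 19.4, 19.1, 22.4 and 21.8 FPKM in siCtrl and 20.8, 26.02, 24.8 and 24.9 FPKM in siPRMT7 replicates. Replicate 1 of siPRMT7 lay inside the control range and the other 3 lay above it. The log2 fold changes were 0.13 (0.018 to 0.24) for MSMO1 and 0.21 (0.036 to 0.39) for NSDHL, with limma adjusted p-values of 0.324 and 0.31. HSD17B7, the ketone reductase that follows NSDHL, had 4.84 ± 0.328 and 4.82 ± 0.322 FPKM. HSD17B7P2, its pseudogene, had 2.57 to 3.76 FPKM, and fragments of the 2 could be exchanged in mapping.

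FDFT1, the squalene synthase, had 8.46, 8.65, 8.8 and 9.16 FPKM in siCtrl and 8.93, 11.3, 9.37 and 9.54 FPKM in siPRMT7 replicates 1 to 4. Its 11.6% higher mean was 5.85% higher without siPRMT7 replicate 2. SQLE, the squalene epoxidase and a control point of the pathway, had 37.01, 35.6, 34.6 and 36.3 FPKM in siCtrl and 38.2, 39.8, 35.4 and 37.3 FPKM in siPRMT7 replicates. Its log2 fold change was 0.067 (-0.035 to 0.17), with a limma adjusted p of 0.523. Its mean was 4.98% higher, and 3.03% higher without siPRMT7 replicate 2. LSS, which closes the sterol rings, had 11.2 ± 0.517 and 11.8 ± 0.75 FPKM.

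TM7SF2, a sterol C14 reductase, had 6.71, 7.03, 8.22 and 7.12 FPKM in siCtrl and 7.08, 8.63, 8.58 and 8.2 FPKM in siPRMT7 replicates 1 to 4. EBP, the sterol isomerase, had 39.8, 35.8, 42.2 and 37.9 FPKM in siCtrl and 38.8, 50.7, 45.3 and 39.5 FPKM in siPRMT7 replicates. In both genes 2 siPRMT7 libraries, replicates 2 and 3, exceeded every control, and the 11.9% higher mean of EBP was 5.79% higher without replicate 2. CYP51A1, the C14 demethylase, had 2.87 ± 0.351 and 3.19 ± 0.281 FPKM. Of its exonic bases 79.4% are shared with AC000120.2 on the same strand, which was listed at 0 FPKM in all libraries, so the level of CYP51A1 depends on how shared fragments were counted. The last 2 enzymes, SC5D and DHCR7, had 11.3 ± 0.537 and 42.9 ± 1.07 FPKM in siCtrl and 11.2 ± 0.562 and 42.8 ± 2.59 FPKM in siPRMT7 libraries.

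**Figure D1:**
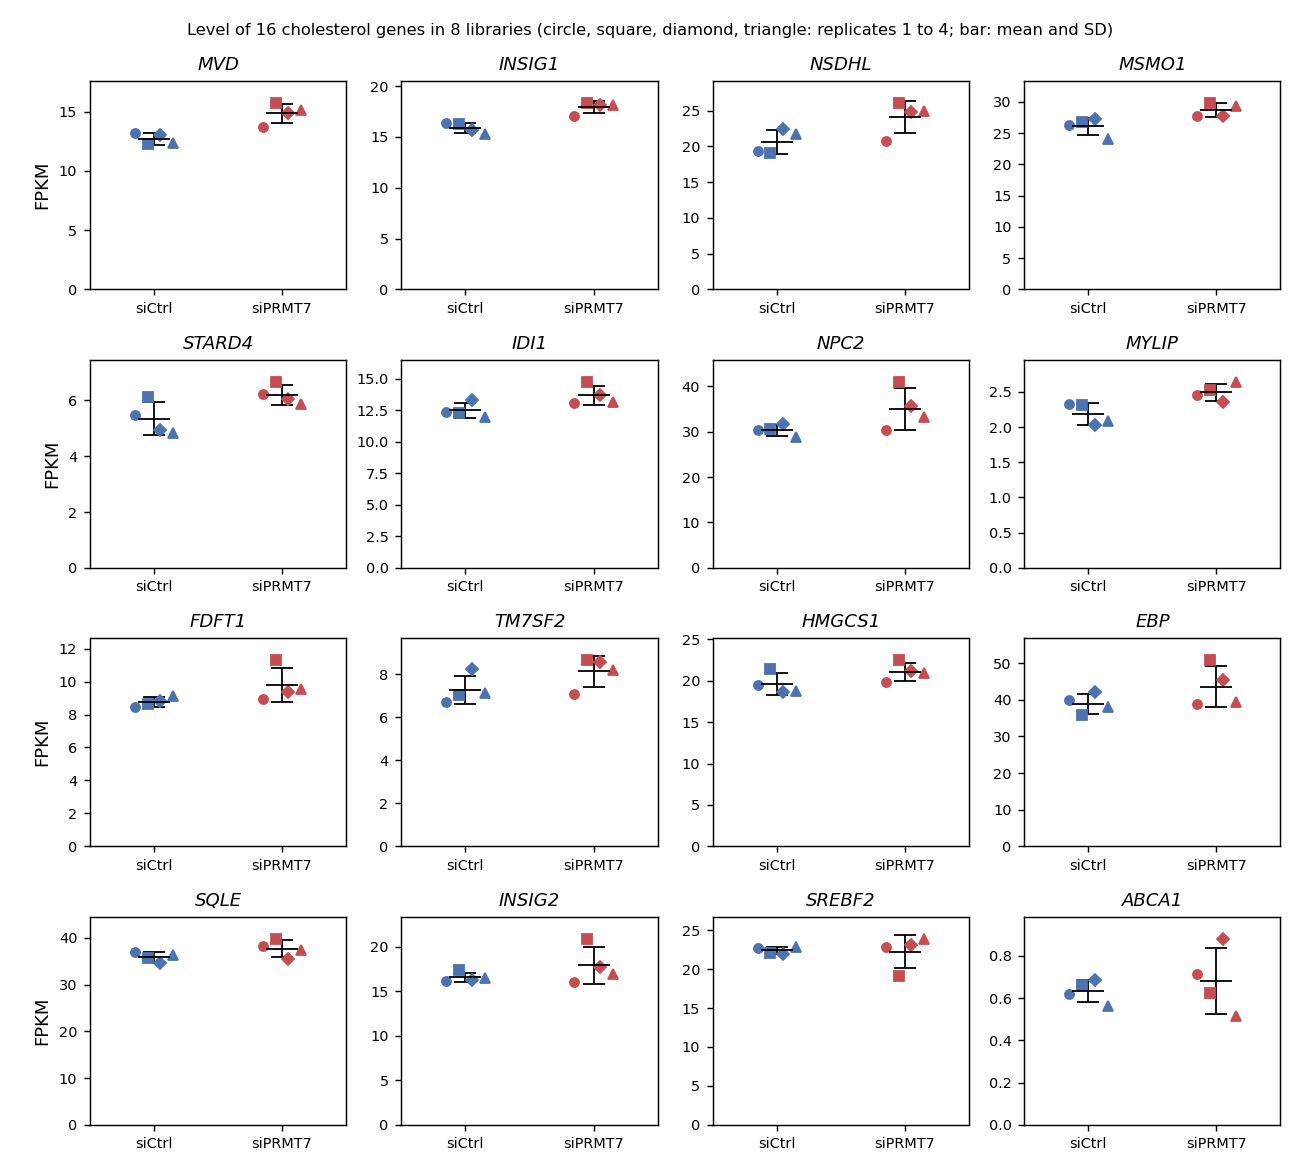
FPKM (vertical axes, from 0) of 16 genes in the 4 siCtrl and 4 siPRMT7 libraries, with points for libraries and bars for the mean and SD. The groups are separate in MVD, INSIG1, MSMO1 and MYLIP, and the square of siPRMT7 replicate 2 is the highest point in most panels.

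Among the 4 genes of SREBP2 control, INSIG1 alone had groups that did not overlap. INSIG1 (ENSG00000186480, chromosome 7, 155297776 to 155310235, plus strand), an SREBP2 target that retains SCAP, had 16.4, 16.2, 15.7 and 15.3 FPKM in siCtrl and 17.1, 18.3, 18.2 and 18.1 FPKM in siPRMT7 replicates 1 to 4. All siPRMT7 libraries were above all controls. The mean was 12.6% higher (15.9 ± 0.473 to 17.9 ± 0.571 FPKM, SD, n = 4 each), with a log2 fold change of 0.16 (0.069 to 0.25) and a limma adjusted p of 0.202. Over the alternatives the adjusted p ran from 0.089 to 0.429. Without siPRMT7 replicate 2 the mean was 11.8% higher.

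INSIG2, its paralog, which is known to respond less to SREBP2, had 16.2, 17.4, 16.3 and 16.5 FPKM in siCtrl and 16.1, 20.9, 17.8 and 16.95 FPKM in siPRMT7 replicates 1 to 4. The groups overlap, and its mean of 8.13% higher was 2.16% higher without siPRMT7 replicate 2. SREBF2 had 22.8, 22.1, 21.96 and 22.9 FPKM in siCtrl and 22.8, 19.1, 23.1 and 23.9 FPKM in siPRMT7 replicates. Here siPRMT7 replicate 2 was the lowest of all 8 and replicate 4 the highest, with a log2 fold change of -0.017 (-0.17 to 0.13), which was 0.052 without replicate 2. SCAP had 16.6 ± 0.599 and 16.2 ± 0.687 FPKM. The difference between INSIG1 and the other 3 was not tested.

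Uptake and transport inside the cell was mixed, with 3 of 5 genes higher by mean and 2 lower. STARD4 (ENSG00000164211, chromosome 5, 111496033 to 111512590, minus strand), which carries sterol between membranes, had 5.46, 6.13, 4.93 and 4.84 FPKM in siCtrl and 6.21, 6.66, 6.04 and 5.85 FPKM in siPRMT7 replicates 1 to 4. Only siCtrl replicate 2 reached into the siPRMT7 range. Its log2 fold change was 0.19 (0.023 to 0.35), with a limma adjusted p of 0.329. MYLIP (ENSG00000007944, chromosome 6, 16129125 to 16148248, plus strand) had 2.32, 2.31, 2.02 and 2.09 FPKM in siCtrl and 2.46, 2.52, 2.35 and 2.64 FPKM in siPRMT7 replicates. The groups did not overlap, but siCtrl replicate 1 and siPRMT7 replicate 3 were next to each other, on 92 to 117 fragments per library. Its log2 fold change was 0.13 (-0.0096 to 0.28), with a limma adjusted p of 0.397.

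The Niemann-Pick pair passes cholesterol out of lysosomes, and its means differed in opposite directions. NPC2, the soluble carrier, had 30.3, 30.6, 31.7 and 28.8 FPKM in siCtrl and 30.3, 41.0, 35.7 and 33.2 FPKM in siPRMT7 replicates 1 to 4. NPC1, the membrane protein that takes it over, had 31.2, 30.5, 29.3 and 30.7 FPKM in siCtrl and 30.8, 23.2, 28.3 and 30.6 FPKM in siPRMT7 replicates. Replicate 2 was the highest of 8 for NPC2 and the lowest of 8 for NPC1, and replicate 1 was inside the control range for both. Without siPRMT7 replicate 2, NPC2 was 8.82% higher in place of 15.4%, and NPC1 1.70% lower (-1.70% in place of -7.18%). Their limma adjusted p-values were 0.37 and 0.555. The sterol-regulated protein TMEM97, which binds NPC1, had 6.8 ± 0.298 and 6.61 ± 0.415 FPKM.

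In export and storage, ABCA1, which loads cholesterol onto lipoprotein, had 0.621, 0.661, 0.686 and 0.565 FPKM in siCtrl and 0.714, 0.622, 0.88 and 0.513 FPKM in siPRMT7 replicates 1 to 4. It did not reach 1 FPKM in any library and was not tested. Its siPRMT7 libraries enclosed the control range, with 85 to 150 fragments each. SOAT1, which esterifies cholesterol for storage, had 10.5 ± 0.448 and 10.3 ± 0.145 FPKM (log2 fold change -0.022, -0.12 to 0.073). MYLIP, named above with ABCA1 as raised by LXR, had separate groups, while ABCA1, under 1 FPKM in all libraries, did not.

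**Figure D2:**
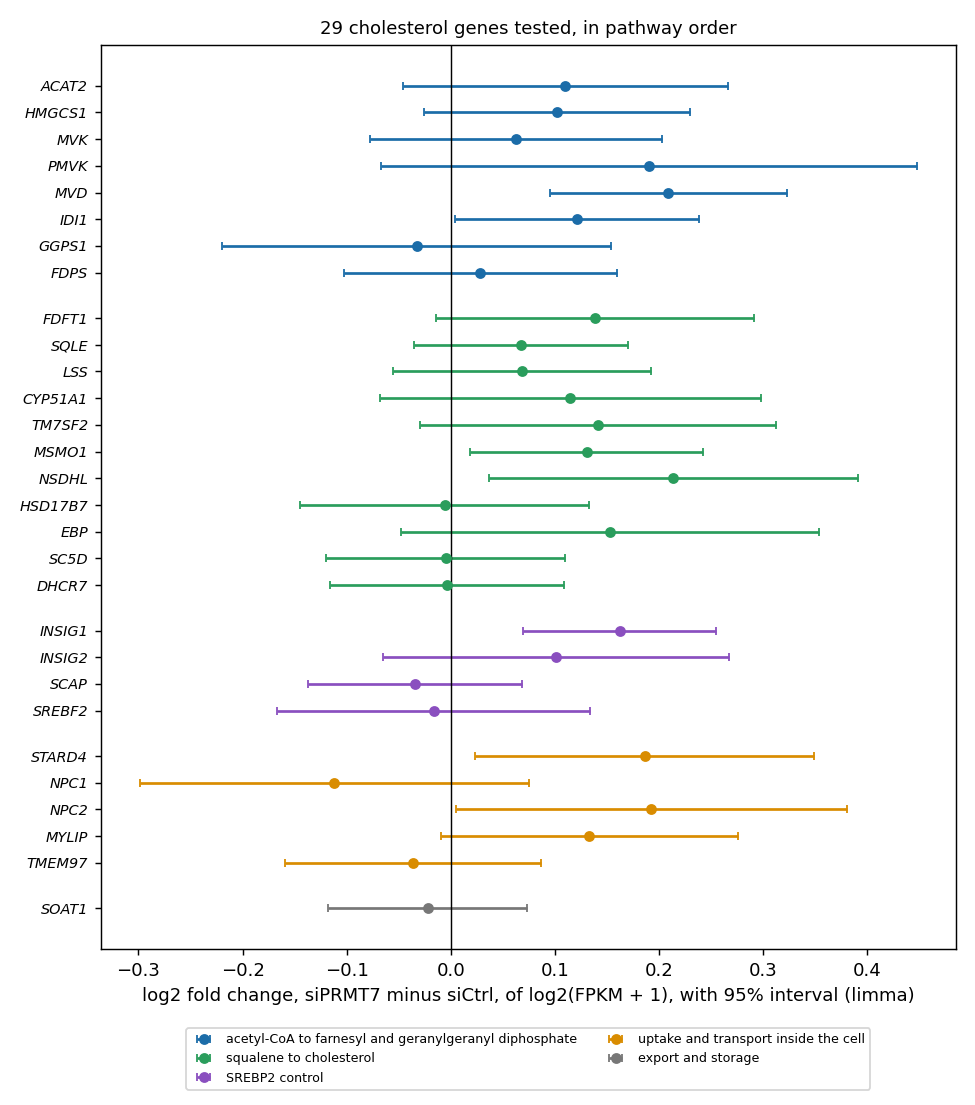
Log2 fold change (siPRMT7 minus siCtrl, horizontal axis, on log2(FPKM + 1)) of the 29 genes tested, with 95% limma intervals, in pathway order and coloured by step. Intervals of 7 genes lie wholly above 0, none lies below it, and no gene passed after adjustment.

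Levels differed widely along the pathway. In the siCtrl libraries the FPKM mean, which is per gene length, was highest for DHCR7 (42.9), EBP (38.9) and SQLE (35.9) and lowest for CYP51A1 (2.87), MYLIP (2.19) and ABCA1 (0.633). Of the 29 neighbouring pairs in that order, 10 differed by less than the larger SD of the pair. Among these were NPC1 and NPC2, INSIG2 and SCAP, and MVD and IDI1. The low place of CYP51A1 depends on how fragments shared with AC000120.2 were counted.

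The 4 siPRMT7 libraries did not contribute alike. Averaged over the 29 genes, the log2(FPKM + 1) level relative to the siCtrl mean was 0.010 in siPRMT7 replicate 1, 0.13 in replicate 2, 0.094 in replicate 3 and 0.087 in replicate 4. The siCtrl libraries lay from -0.021 to 0.012, so replicate 1 was inside the control range. In replicate 1, 7 of the 29 genes exceeded every control, 18 lay within the control range and 4 were below it. Of all genes tested, 19.9% were above and 22.9% below every control in that library, so its 7 of 29 (24.1%) is near the background. In replicate 2 the numbers were 19, 6 and 4 (all genes 36.6% above and 33.5% below), in replicate 3 they were 16, 12 and 1 (27.9% and 26.1%), and in replicate 4 they were 13, 14 and 2 (24.4% and 25.4%). Replicate 2 held the highest of the 8 values for 18 of the 29 genes (62.1%), as it did for 29.6% of all genes tested.

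By step, the mevalonate genes were 0.21 above the siCtrl mean in siPRMT7 replicate 2, 0.10 in replicate 3, 0.096 in replicate 4 and -0.017 in replicate 1. The squalene-to-cholesterol genes were at 0.14, 0.12, 0.090 and 0.016 in the same order. The SREBP2 control genes were at 0.042, 0.078, 0.078 and 0.014. Thus the means of the mevalonate and the squalene-to-cholesterol genes were highest in replicate 2, while the mean of the SREBP2 control genes was not. In that library INSIG1 (0.19) and INSIG2 (0.32) were above the siCtrl mean, and SCAP (-0.12) and SREBF2 (-0.22) below it. Each of these genes was farther from the siCtrl mean there than in the other siPRMT7 libraries.

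The level of cytosolic ribosomal protein genes differed between the same libraries. Relative to the siCtrl mean it was -0.063, 0.35, 0.16 and 0.035 in siPRMT7 replicates 1 to 4, and -0.041 to 0.084 in the siCtrl libraries. Replicate 4 was thus within the control range for ribosomal protein genes and above it for the cholesterol genes. With that level as a covariate, chosen after the data were seen, 3 of the 29 genes (10.3%) had an unadjusted p under 0.05. All 3 had a higher mean. Of all genes, 6.47% were counted as higher and 12.02% in either direction. The median of the 29 was then 0.060. MVD and INSIG1 then had log2 fold changes of 0.16 and 0.14, and EBP and INSIG2 had 0.029 and 0.010. The part of ribosomal protein level, and of siPRMT7 replicate 2, in the other differences was not tested.

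**Figure D3:**
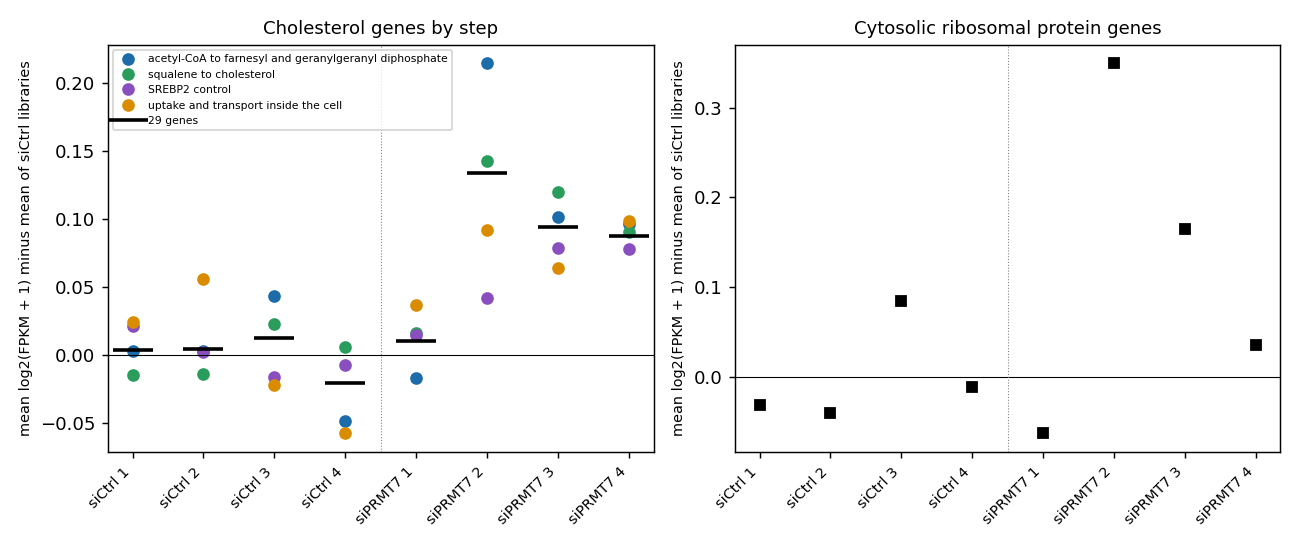
Mean log2(FPKM + 1) relative to the siCtrl mean (vertical axes) in each of 8 libraries, on the left for the 29 cholesterol genes (bars) and 4 of their steps (dots), on the right for ribosomal protein genes. On the left siPRMT7 replicate 1 sits at 0.010 among the controls and the other 3 at 0.087 to 0.13.

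Gene length also went with these values. In siPRMT7 replicate 2 the deviation from the siCtrl mean had a Spearman correlation of -0.56 with gene length over the 29 genes and -0.39 over all 13436 genes, which share that library and its scaling. In siPRMT7 replicates 1, 3 and 4 it was 0.15, -0.44 and -0.44 over the 29 genes. Over all 13436 genes it was 0.020, -0.30 and -0.17 in these libraries. In the control libraries it ran, over the 29 genes, from -0.48 in siCtrl replicate 3 to 0.41 in siCtrl replicate 1. Their own mean is the one subtracted, so these values are not a like measure for the siPRMT7 libraries. The short genes PMVK (1280 bases), NSDHL (1996 bases), EBP (2409 bases) and NPC2 (2749 bases) were among the highest in replicate 2. The long genes SREBF2 (7557 bases) and NPC1 (10102 bases) were the lowest of the 29. Not every gene followed length: FDFT1 (5202 bases) was at 0.33, above NSDHL at 0.32, and TMEM97 (3034 bases) was at -0.016. With each library's trend on length removed, chosen after the data were seen, MVD had 0.20 and STARD4 0.20, while NSDHL went from 0.21 to 0.14 and MSMO1 from 0.13 to 0.079. SREBF2 turned to 0.020 and NPC1 went to -0.051. Of the 29, 5 (17.2%) then had an unadjusted p under 0.05, all with a higher mean, and 0 passed after adjustment. Of all genes, 6.97% were counted as higher and 12.9% in either direction.

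**Figure D4:**
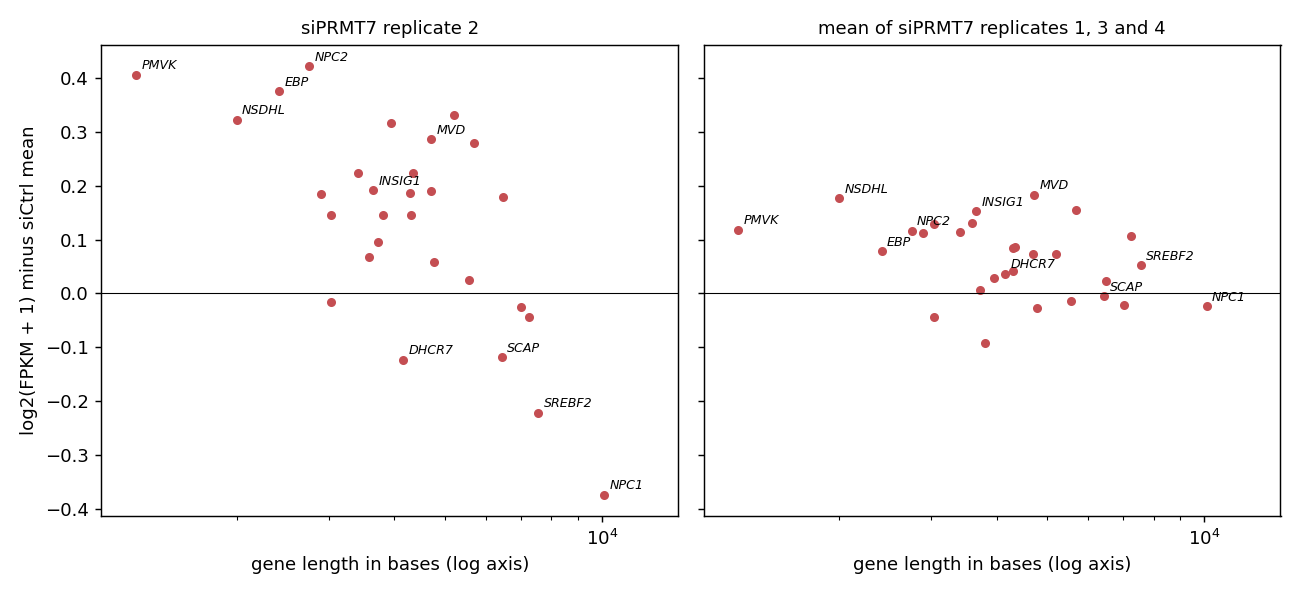
Deviation of log2(FPKM + 1) from the siCtrl mean (vertical axis) against gene length in bases (horizontal log axis) for the 29 genes, in siPRMT7 replicate 2 (left) and averaged over siPRMT7 replicates 1, 3 and 4 (right). On the left short genes such as PMVK sit high and NPC1, the longest, sits lowest.

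A further 40 genes of the pathway, in 3 lists, were set beside the 30. Of the 37 tested, 19 were higher and 18 lower by mean, with a median of 3.4e-05, and 0 passed. At an unadjusted p under 0.05 there were 2 higher (5.41%) and 3 lower of the 37. Of all genes tested, 7.67% were higher and 5.49% lower at that threshold. In the list of SREBP control and LXR, 4 of 11 were higher. MBTPS2, the protease that frees SREBP within the membrane, had 6.78, 6.26, 6.52 and 6.93 FPKM in siCtrl and 6.33, 5.52, 5.69 and 5.61 FPKM in siPRMT7 replicates 1 to 4. SREBF1, the sister factor of SREBF2, had 9.09 ± 0.346 and 9.81 ± 0.113 FPKM, with all siPRMT7 libraries above all controls. NR1H3, which encodes LXR alpha, had 2.36 ± 0.383 and 2.77 ± 0.395 FPKM. Limma adjusted p-values of MBTPS2, SREBF1 and NR1H3 were 0.276, 0.351 and 0.501.

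Of 14 genes of acetyl-CoA supply, other sterol enzymes and isoprenoid branches, 9 were higher and 5 lower. The 4 with the smallest p were the prenyltransferase subunits RABGGTB (10.4 ± 1.00 and 11.7 ± 1.34 FPKM) and FNTB (8.57 ± 0.511 and 9.25 ± 0.958 FPKM), the citrate lyase ACLY (36.4 ± 0.489 and 33.4 ± 4.24 FPKM) and the dolichol enzyme DHDDS (8.87 ± 0.592 and 8.28 ± 0.709 FPKM). Of 12 tested genes of uptake, transport, storage and oxysterols, 6 were higher and 6 lower. NCEH1, which releases cholesterol from its esters, had 23.8, 24.7, 25.1 and 25.9 FPKM in siCtrl and 22.3, 22.2, 23.03 and 21.8 FPKM in siPRMT7 replicates 1 to 4, with no overlap (limma adjusted p = 0.217). LRPAP1, a chaperone of lipoprotein receptors, had 9.3 ± 0.393 and 10.5 ± 0.69 FPKM. GRAMD1A, a carrier of sterol from the plasma membrane, had 6.84 ± 0.235 and 7.37 ± 0.464 FPKM, and CYP27A1, a sterol 27-hydroxylase, had 8.28 ± 0.599 and 8.85 ± 0.519 FPKM. VLDLR, GRAMD1C and CH25H did not pass the level filter.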

How the data were processed

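RNA sequencing of 8 PC3 libraries was analysed from 1 table of FPKM values that the authors deposited. Per the submitters' processing notes, cutadapt 2.5, HISAT2 2.1.0 and featureCounts 1.6.3 were used. The notes name a mouse build, but start, end and strand of all 58735 genes match GENCODE release 29 on GRCh38. Gene lengths were taken as deposited. For members found to share exonic bases with another gene, the length equals the bases covered by their annotated exons in that release. FPKM times length was a whole multiple of 1 step per library for 100% of values above 0 (tolerance 0.01 fragments), so fragments were rebuilt for depth and for one alternative. Libraries have no molecular identifiers, so fragments may include PCR copies.

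Values were tested as log2(FPKM + 1) with limma 3.58.1 (R 4.3.3), with a variance trend, two-sided, over 13436 genes with at least 1 FPKM in at least 4 of 8 libraries, and Benjamini-Hochberg adjustment at 0.05. This scale understates changes of low genes. The script was tested on simulated data that held no outlying library and no length trend. That test therefore does not cover these features of the data. The 30 genes, the lists and the tests were chosen with earlier results of these data known. Values in every library were given for the 12 genes with the smallest p and for INSIG1, INSIG2, SREBF2 and ABCA1, and also for SQLE and NPC1, chosen after their values were seen. From each other list the 4 genes with the smallest p were named, except 1 gene that is not reported here. Alternatives were other pseudocounts (0.1 and 0.5), filters, scalings, variance models, voom on rebuilt fragments, a replicate block and leaving out each library. A ribosomal protein covariate and removal of length trends were added after the data were seen.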

Additional observations from a re-analysis of the deposited data

Results flagged for a closer look

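INSIG1 in siPRMT7 replicate 1 was the 1 of 60 groups of 4 libraries (30 genes, 2 groups each) in which a library stood far from the others. It had 17.1 FPKM, and the other 3 had 18.1 to 18.3 FPKM, so the gap to the nearest took up 0.861 of the range; this is past Dixon's 95% critical value. Chance marks about 1 in 20 groups in this way. At 17.1 FPKM the library was still above the highest siCtrl library.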

How the results depend on the processing

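Over 20 alternatives 0 of the 29 genes passed, and 20 of the 29 kept their direction in each alternative that gave them a value. CYP51A1, GGPS1, HSD17B7 and MYLIP had 19, with no value at FPKM at least 5. The number of all genes passing, 2 as reported, was 1 with log2(FPKM + 0.1), 1 with FPKM at least 5, 1 with quantile normalization, 5 unfiltered, 12 by voom applied to rebuilt fragments, 34 after removing the length trend, 58 when libraries were weighted, 28 given the ribosomal protein covariate and 0 to 2 with 1 library left out. The 7 genes at an unadjusted p under 0.05 became 4 on the TPM scale and 3 with the ribosomal protein covariate. They became 3 to 12 with 1 library left out. All members counted in these settings had a higher mean. Of all genes, 5.69%, 6.47% and 5.35% to 12.3% were counted as higher. The share in either direction was 13.5%, 12.02% and 8.79% to 20.8%. The median of 0.10 was 0.063 on the TPM scale and 0.060 with the covariate, and 0.074 to 0.14 with 1 library left out. PRMT7, at -8.29% as reported (exact permutation p = 0.0571), was at -10.7% on the TPM scale (exact permutation p = 0.0286). Directions turned for DHCR7 with library weights (0.033) and the covariate (0.026), for FDPS on the TPM scale (-0.010) and with the covariate (-0.023), for HSD17B7 with quantile normalization (0.0052), and for MVK (-0.0018) and NPC1 (0.0025) with the covariate. They also turned for SC5D with library weights (0.0022) and the length trend removed (0.0052), for SOAT1 with the length trend removed (0.0075), and for SREBF2 with library weights (0.040), the covariate (0.057) and the length trend removed (0.020). The causes were not tested. With 1 library left out, the log2 fold change ran over -0.025 to 0.036 for DHCR7, -0.011 to 0.059 for FDPS, -0.092 to 0.021 for GGPS1, -0.034 to 0.031 for HSD17B7, -0.030 to 0.020 for SC5D and -0.051 to 0.052 for SREBF2. After each gene's own group mean was subtracted, same-numbered libraries of the 2 groups correlated at -0.031 to 0.061 over all genes tested. They were therefore not treated as pairs. With the replicate block 0 genes passed in all, 6 of the 29 (20.7%) had an unadjusted p under 0.05 and the median was 0.10. All 6 had a higher mean, and 7.44% of all genes were then counted as higher. MYLIP rests on 92 to 117 fragments per library and ABCA1 on 85 to 150.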
